A study of Mus musculus with 10 samples.

Results

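The genes described are 9 parts of the machinery that writes, copies, oxidises and targets DNA methylation: Dnmt1, Dnmt3a, Dnmt3b, Uhrf1, Tet1, Tet2, Tet3, Setdb1 and Trim28. They were chosen by name as rows of the deposited count table, which lists 52632 genes, and all 9 were found once. All 9 were also among the 17110 genes that passed the filter on low counts. The study sequenced poly(A) RNA from 10 mouse neural stem cell cultures, each grown as an adherent layer in EGF and FGF (20 ng/mL each) from the cortex of 1 embryo taken at embryonic day 14.5. It asked what a mutation in the ATPase domain of the silencing protein SMCHD1 does to expression. The groups were 2 female cultures carrying 1 GFP-tagged E147A allele of Smchd1 (genotype E147A/+, litters 1 and 2), 2 female +/+ cultures (both litter 3), 3 male E147A/+ cultures (litters 1, 1 and 3) and 3 male +/+ cultures (litters 4, 1 and 3). Every female also carried the XistdeltaA deletion on 1 X chromosome, whatever its Smchd1 genotype, and the labels give every embryo a Castaneus (Cast) father and a mother from a 129 by C57 cross. No label gives 129 and C57 separately, so the non-Cast allele is written by its column name, 129. In females the genotypes share no litter, so genotype and litter cannot be told apart there.

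DNA methylation in mammals is laid down on cytosines of CpG dinucleotides. DNMT3A and DNMT3B methylate new sites, and DNMT1 copies the pattern onto the new strand after replication, guided by UHRF1, which binds hemimethylated CpG and marks histone H3 near the fork. The TET enzymes (Tet1, Tet2, Tet3) oxidise methylcytosine, which starts its removal. TRIM28 is the scaffold that zinc finger proteins recruit to transposons and imprinted regions, and SETDB1 is the methyltransferase that TRIM28 brings there to mark histone H3. In neural progenitors Dnmt1 and Uhrf1 are known as genes of dividing cells, and Dnmt3a is the main enzyme for new methylation in the developing brain.

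Library totals lay between 20648916 and 44519020 counts. Xist was at 984 CPM or more in the 4 female libraries and at 0.536 CPM or less in the 6 male ones. The summed level of 4 Y-linked genes was 212 to 304 CPM in the males. It was 4.71 and 1.18 CPM in the +/+ females and 0.185 and 0.116 CPM in the E147A/+ females. Smchd1 itself was at 116 and 120.0 CPM in the E147A/+ females, 139.8 and 172 CPM in the +/+ females, 94.2, 121 and 128 CPM in the E147A/+ males and 122, 151 and 192 CPM in the +/+ males. A gene total does not show the substitution, so this is no check of the genotype. All 10 neural stem cell markers were detected, with summed levels of 4925 to 6992 CPM, and the 6 microglial markers summed to at most 2.83 CPM, C1qa having no count in 7 libraries. Markers of endothelial cells summed to at most 4.12 CPM, those of meningeal and mesenchymal cells to at most 18.3 CPM, those of neurons to 27.7 to 89.9 CPM and those of astrocytes to 178 to 298 CPM. The oligodendrocyte lineage markers summed to 453 CPM in male +/+ replicate 1 and to 85.4 to 237 CPM in the other libraries, and their part in the levels below was not tested. Male E147A/+ replicate 3 and male +/+ replicate 1 stood apart from the rest in several of the 9 genes and in replication genes. Values without them are given for many, but not all, of the correlations, spreads and differences they move. The female allele columns went against the breeding described: at many loci a library had almost no Cast counts, as set out with the allele data.

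Trim28 had the highest level per kilobase of exon of the 9 genes and Dnmt3b the lowest. In CPM per kb, as mean ± SD over the 10 libraries, Trim28 was at 106 ± 18.2, Uhrf1 at 60.9 ± 14.2, Dnmt1 at 39.8 ± 8.17 and Setdb1 at 20.1 ± 2.51. Dnmt3a at 10.8 ± 1.33 and Tet3 at 9.38 ± 1.29 came next, ahead of Tet1 at 3.65 ± 0.570, Tet2 at 2.126 ± 0.295 and Dnmt3b at 0.725 ± 0.172. Dnmt3a was thus the main transcript of the enzymes for new methylation, and Tet3 that of the oxidising enzymes. The ranges of 2 neighbouring pairs in this order overlapped. Uhrf1 and Dnmt1 overlapped over all libraries although Uhrf1 was the higher in 10 of 10. Dnmt3a was above Tet3 in 7 of 10 libraries, so their order was not fixed within the spread. The other 6 neighbouring pairs had separate ranges. Exon lengths are the union of annotated exons, so a gene whose cells use only short isoforms is placed too low on this scale, and isoform use was not tested. Setdb1 shares 75 exonic bases with another gene.

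**Figure D1:**
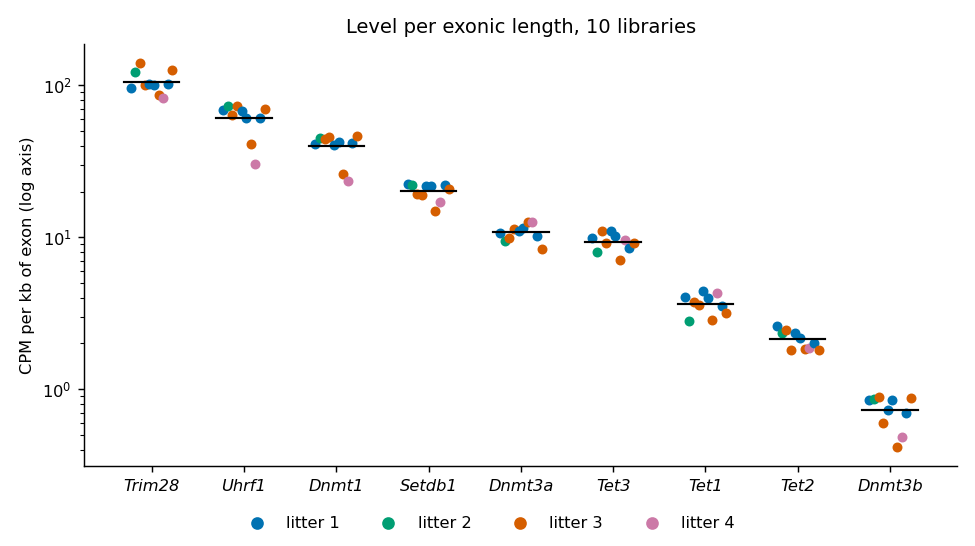
Level of each of the 9 genes in CPM per kilobase of exon (log axis), 1 point per library coloured by litter, with a line at the mean of the 10 libraries. Trim28 stands highest at a mean of 106 and Dnmt3b lowest at 0.725, and the points of Dnmt3a and Tet3 interleave.

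Dnmt1, the maintenance methyltransferase (chr9:20907209-20959888, minus strand, GRCm38), had overlapping levels in the genotypes and was low in 2 male libraries. It was at 305 and 334 CPM in the E147A/+ female libraries and at 330.0 and 339 CPM in the +/+ female libraries. It was at 300.5, 311 and 192 CPM in the E147A/+ males and at 174, 306 and 345 CPM in the +/+ males. Within each sex the genotypes overlapped, and the 2 low values, male E147A/+ replicate 3 and male +/+ replicate 1, came from opposite genotypes and from litters 3 and 4. Averaged over the sexes, the log2 difference of E147A/+ from +/+ in Dnmt1 was -0.053 (SE 0.21, adjusted p = 0.962), with a 95% interval for the fold of 0.699 to 1.33. Within the male litters that hold both genotypes, Dnmt1 was at 300.5 and 311 CPM against 306 CPM in litter 1, and at 192 against 345 CPM in litter 3.

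Uhrf1, the partner that brings DNMT1 to hemimethylated sites (chr17:56303321-56323486, plus strand), was lowest in the same pair of male libraries. It was at 293 and 314 CPM in the E147A/+ female libraries and at 271 and 309.8 CPM in the +/+ female libraries. It was at 287, 259 and 174 CPM in the E147A/+ males and at 129, 261 and 296 CPM in the +/+ males. The lowest value fell in a +/+ male and the next in an E147A/+ male, and the genotypes overlapped in both sexes. The genotype difference of Uhrf1 was a log2 of 0.067 (SE 0.23, adjusted p = 0.957), with an interval for the fold of 0.732 to 1.50. Its sign turned with litter as a covariate, to -0.28.

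**Figure D2:**
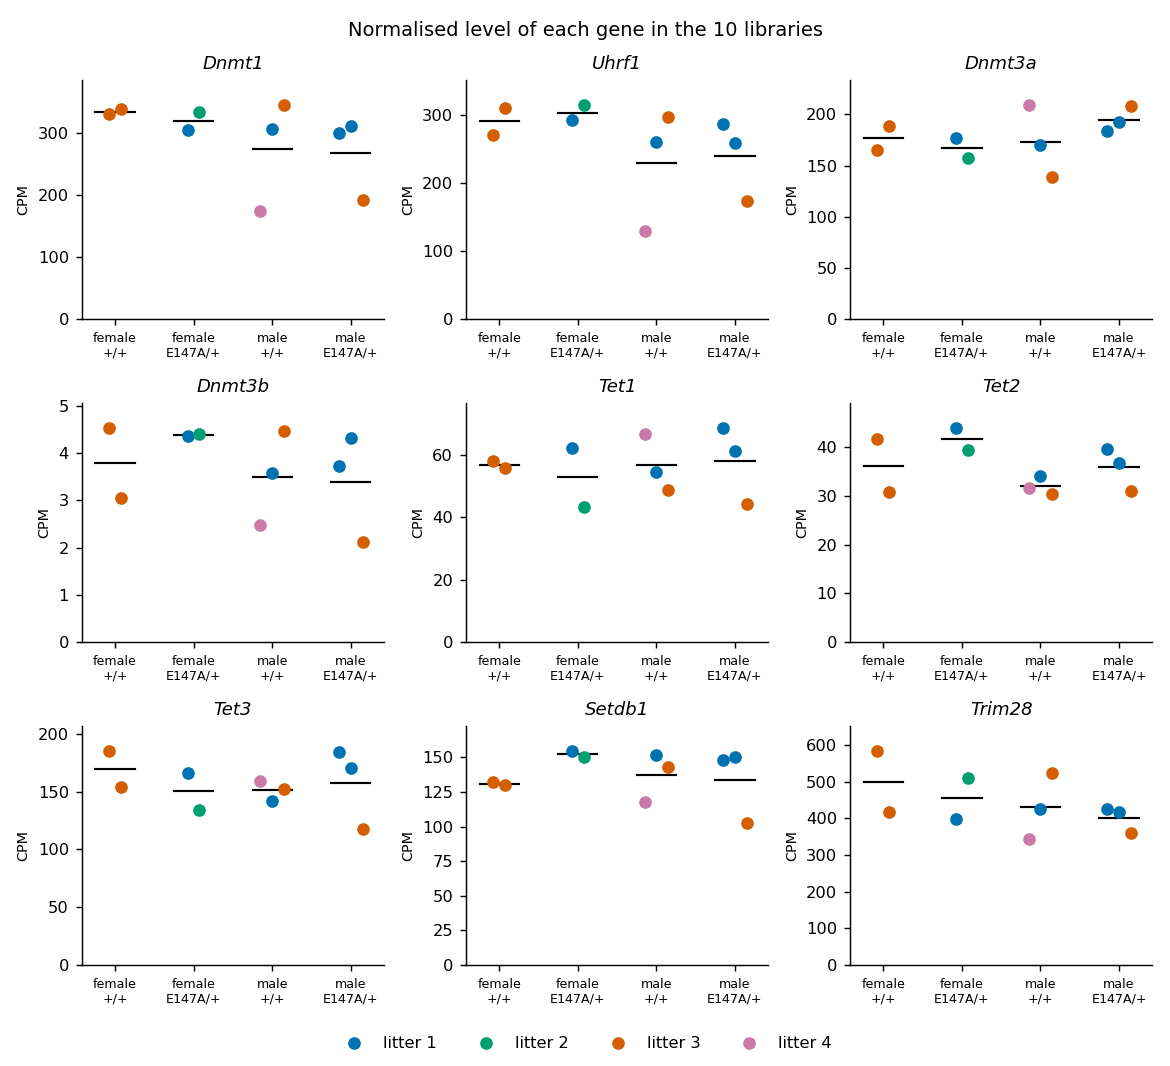
Normalised level (CPM) of each of the 9 genes in the 10 libraries by sex and genotype, points coloured by litter and a line at the group mean, with every axis starting at 0. Genotypes overlap in each panel except for Setdb1 in females, and male E147A/+ replicate 3 (litter 3) and male +/+ replicate 1 (litter 4) lie low for Dnmt1 and Uhrf1.

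Because Dnmt1 and Uhrf1 were lowest in the same 2 libraries, the promoters of the 9 genes were searched for 4 spellings of the E2F motif, TTTGGCGC, TTTCGCGC, TTTCCCGC and TTTGCCGC, on both strands. Windows ran from 250 bases before to 50 bases after each RefSeq start (GRCm38.p6), and all 9 genes matched, with 14 windows in all. Only 2 of the 14 held a motif, 1 window each of Dnmt1 and Uhrf1, against 744 of all 32851 windows (2.26%), a share not matched for CpG content. Dnmt3b, Setdb1 and Trim28 also had their 2 lowest values in these 2 libraries, and none of their windows held a motif. The motifs were chosen after the levels were seen. These 2 windows are shown as the ones with a match, 5′ to 3′ on the strand of the gene, with the motifs in capitals. GCGCGAAA is TTTCGCGC read on the other strand, and no 2 matches overlap.
Dnmt1, chr9:20952574-20952873, minus strand: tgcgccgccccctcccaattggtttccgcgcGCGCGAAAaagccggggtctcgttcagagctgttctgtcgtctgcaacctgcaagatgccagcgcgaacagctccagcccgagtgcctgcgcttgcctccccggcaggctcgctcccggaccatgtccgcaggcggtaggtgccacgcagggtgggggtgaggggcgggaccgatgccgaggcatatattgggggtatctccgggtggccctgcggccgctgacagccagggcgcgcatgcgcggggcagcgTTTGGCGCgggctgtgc
Uhrf1, chr17:56304063-56304362, plus strand: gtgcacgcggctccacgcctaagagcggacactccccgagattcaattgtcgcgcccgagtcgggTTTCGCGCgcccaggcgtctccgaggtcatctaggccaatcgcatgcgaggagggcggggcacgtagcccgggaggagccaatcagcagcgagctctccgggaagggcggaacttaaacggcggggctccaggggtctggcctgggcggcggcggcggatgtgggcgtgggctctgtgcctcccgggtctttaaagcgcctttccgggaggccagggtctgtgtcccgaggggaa
The Dnmt1 window holds 1 motif that begins 219 bases before the start and 1 that begins at base 34 counted from the start, and the Uhrf1 window 1 that begins 185 bases before the start. Each of the 2 windows has 33 CpG dinucleotides. Of all windows 92.3% have 33 or fewer, and the median is 7. Dnmt1 has 2 further RefSeq windows and Uhrf1 1, and none of these 3 held a motif. A match is a run of letters and says nothing about what binds there.

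Dnmt1 and Uhrf1 were low in the libraries where replication genes were low. Dnmt1 and Uhrf1 correlated with Pearson's r = 0.97 over the log2 CPM of 10 libraries, and with 0.54 over the 8 libraries without male E147A/+ replicate 3 and male +/+ replicate 1. The libraries share litters and normalisation, so these are descriptions. A list of 26 replication and mitosis genes summed to 2667 CPM in male E147A/+ replicate 3 and 2611 CPM in male +/+ replicate 1, against 3987 to 5625 CPM in the other 8. Dnmt1 correlated with this sum with r = 0.96 over 10 libraries and 0.86 over the 8. For Uhrf1 the values were 0.88 and 0.27, so its relation rested largely on the 2 libraries. Fewer dividing cells and less RNA per cell cannot be told apart in bulk RNA, and the part of cycling in any of these levels was not tested. The tested genes most like Dnmt1 were Mcm3 (0.994), Lig1 (0.992) and E2f7 (0.984), with r over the 10 libraries in parentheses, and over the 8 these were 0.862, 0.779 and 0.713. Those most like Uhrf1 were Pola2 (0.986), Mybl2 (0.984) and Chaf1a (0.981), at 0.713, 0.756 and 0.534 over the 8. For the closest genes of the other 7, named below, r over the 8 lay between 0.880 and 0.982. The named genes are the top of longer lists. Genes with r of at least 0.9 over the 10 libraries numbered 347 for Setdb1, 220 for Dnmt3a and 210 for Dnmt1. The numbers were 135 for Uhrf1, 135 for Trim28, 118 for Dnmt3b, 14 for Tet2, 7 for Tet3 and 5 for Tet1.

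**Figure D3:**
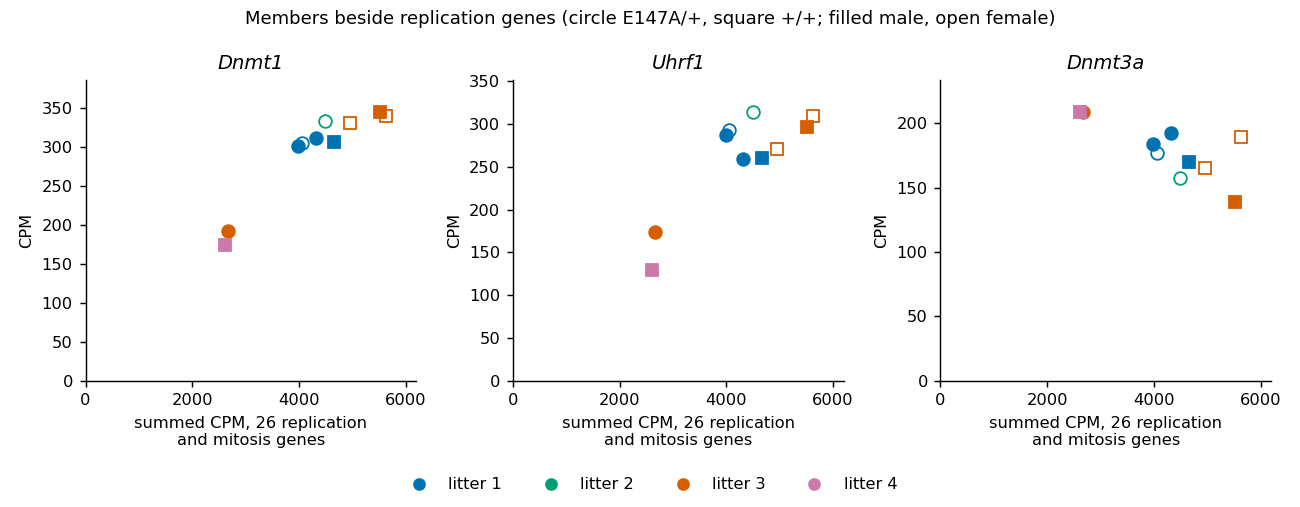
Level (CPM) of Dnmt1, Uhrf1 and Dnmt3a on the vertical axes against the summed CPM of 26 replication and mitosis genes, 1 point per library (circles E147A/+, squares +/+, filled male, open female, coloured by litter). The 2 libraries at the left, with sums of 2611 and 2667 CPM, are lowest for Dnmt1 and Uhrf1 and highest for Dnmt3a.

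Dnmt3a, the enzyme for new methylation that is most abundant in brain (chr12:3806007-3914443, plus strand), ran the other way across the cultures. It was at 177 and 158 CPM in the E147A/+ female libraries and at 165 and 189 CPM in the +/+ female libraries. It was at 184, 193 and 209 CPM in the E147A/+ males and at 209, 170.1 and 139 CPM in the +/+ males. Its 2 highest libraries were the 2 lowest for Dnmt1, and male +/+ replicate 3, highest for Dnmt1, was its lowest. The correlation was -0.73 with Dnmt1 over 10 libraries (-0.56 over 8) and -0.84 with Trim28 (-0.72). Between genotypes the log2 fold change was 0.046 (SE 0.13, adjusted p = 0.953), with an interval for the fold of 0.839 to 1.27, the narrowest of the 9 genes on the log2 scale. The genes most like it were Fam114a1 (0.989), Plin3 (0.978) and Irs2 (0.974).

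Dnmt3b, the second enzyme for new methylation, prominent in the early embryo (chr2:153649450-153687730, plus strand), had the fewest counts, 64 to 190 per library. It was at 4.37 and 4.39 CPM in the E147A/+ female libraries and at 4.52 and 3.06 CPM in the +/+ female libraries. It was at 3.72, 4.32 and 2.128 CPM in the E147A/+ males and at 2.48, 3.57 and 4.45 CPM in the +/+ males. The lowest values were again those of male E147A/+ replicate 3 and male +/+ replicate 1. At this depth counting error alone gives an SD of 0.14 in log2 units against 0.38 seen. The log2 fold change between genotypes was 0.082 (SE 0.30, adjusted p = 0.960), and its interval for the fold, 0.670 to 1.67, was the widest of the 9. With litter as a covariate the value was -0.27. The most similar genes were Gabpb2 (0.979), Srrt (0.972) and Gm45769 (0.966).

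Tet1, the oxidising enzyme best known from embryonic stem cells (chr10:62804570-62908996, minus strand), was at 62.4 and 43.3 CPM in the E147A/+ female libraries and at 58.2 and 55.7 CPM in the +/+ female libraries. It was at 68.6, 61.2 and 44.3 CPM in the E147A/+ males and at 66.9, 54.7 and 48.7 CPM in the +/+ males. The 4 highest libraries included both genotypes, and the log2 fold change was -0.038 (SE 0.17, adjusted p = 0.968), with an interval for the fold of 0.751 to 1.26. Tet2, which lacks the CXXC domain of the other two (chr3:133463679-133545139, minus strand), was at 43.8 and 39.3 CPM in the E147A/+ female libraries and at 41.5 and 30.7 CPM in the +/+ female libraries. It was at 39.5, 36.8 and 31.0 CPM in the E147A/+ males and at 31.6, 34.0 and 30.4 CPM in the +/+ males. Tet2 had the largest fold change of the 9 between genotypes, 0.18 (SE 0.14, adjusted p = 0.824), with an interval for the fold of 0.919 to 1.40 that includes no change, and the genotypes overlapped in both sexes. Tet3, known as the TET enzyme of the egg and zygote (chr6:83362373-83459084, minus strand), was at 166 and 134 CPM in the E147A/+ female libraries and at 185 and 154 CPM in the +/+ female libraries. It was at 185, 171 and 118 CPM in the E147A/+ males and at 159.6, 142 and 153 CPM in the +/+ males. Its lowest library was male E147A/+ replicate 3, whereas male +/+ replicate 1 lay mid-range. Its fold change was -0.059 (SE 0.15, adjusted p = 0.942), with an interval for the fold of 0.761 to 1.21. Without male E147A/+ replicate 3 and male +/+ replicate 1 the value was 0.049 for Tet3 and 0.11 for Tet1, so both signs turned. Tet1 and Tet3 varied together, with r = 0.82 over 10 libraries and 0.84 over 8, while r between Tet1 and Tet2 was 0.31. Across the cultures the closest genes were Trrap (0.935), Hectd4 (0.926) and Gm9403 (0.913) for Tet1, Ganc (0.944), Ube2v1 (0.939) and Zbtb34 (0.935) for Tet2 and Htt (0.954), Prrc2c (0.938) and Kmt2a (0.922) for Tet3.

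Setdb1, the histone H3 methyltransferase of the TRIM28 complex (chr3:95323525-95357202, minus strand), was the single gene of the 9 whose libraries separated by genotype in a sex. It was at 154 and 151 CPM in the E147A/+ female libraries and at 132 and 129.7 CPM in the +/+ female libraries, so both E147A/+ females lay above both +/+ females. Of all genes tested, 21.8% separated in this direction in females and 19.3% in the other. It was at 148, 150.1 and 103 CPM in the E147A/+ males and at 117, 152 and 143 CPM in the +/+ males, where the genotypes overlapped and none of the 9 separated (background 3.2% higher and 3.96% lower). The log2 fold change was 0.22 (SE 0.22, adjusted p = 0.964) in females and -0.040 (SE 0.18, adjusted p = 0.9996) in males. The difference between the sexes was 0.26 (SE 0.28, adjusted p = 0.999) in the interaction test. With litter as a covariate the female value was -0.10, and the +/+ females are the litter 3 females. Averaged over the sexes its log2 difference was 0.090 (SE 0.14, adjusted p = 0.901), with an interval for the fold of 0.858 to 1.32. The most similar genes were Adat1 (0.990), Gm44949 (0.981) and Cables2 (0.980).

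Trim28, the scaffold of the same complex and the highest of the 9 per kilobase (chr7:12999114-13031035, plus strand), was at 399 and 511 CPM in the E147A/+ female libraries and at 583 and 417 CPM in the +/+ female libraries. It was at 426, 418 and 359 CPM in the E147A/+ males and at 343, 425 and 525 CPM in the +/+ males. The highest value was in a +/+ female and the lowest in a +/+ male, and the genotypes overlapped in both sexes. For Trim28 the genotypes differed by a log2 of -0.12 (SE 0.16, adjusted p = 0.884), with an interval for the fold of 0.715 to 1.18. The genes most like it were Zbtb45 (0.973), Nfyc (0.973) and Smg5 (0.965).

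None of the 9 genes passed an adjusted p of 0.05 between E147A/+ and +/+ over both sexes in edgeR's quasi-likelihood test, where 14 of 17110 genes did (0.0818%). DESeq2 also called 0 of the 9, beside 0.662% of all genes, and 0 had an unadjusted p under 0.05 in edgeR, against 5.9% of all genes. In females 0 of 9 passed (0.0117% of all genes) and in males 0 of 9 (0.0234%). In each sex 0 of the 9 had an unadjusted p under 0.05, against 4.36% of all genes in females and 3.44% in males, and 0 passed in DESeq2 (0.275% of all genes in females, 0.299% in males). The interaction of sex and genotype gave 0 of 9, with no gene of the table passing (0%) and 314 genes (1.84%) at an unadjusted p under 0.05, of which 0 were among the 9. DESeq2 called 0 of the 9 and 2 genes in all (0.0117%). Over both sexes the 95% interval of the fold ran from 0.670 to 1.67 for Dnmt3b, from 0.732 to 1.50 for Uhrf1 and from 0.699 to 1.33 for Dnmt1. For Dnmt3a, Tet1, Tet2, Tet3, Setdb1 and Trim28 each bound lies between 0.715 and 1.4. Within a sex the intervals were wider. In females they were 0.570 to 2.35 for Dnmt3b, 0.600 to 1.82 for Uhrf1 and 0.579 to 1.57 for Dnmt1, and in males 0.541 to 1.73, 0.667 to 1.65 and 0.648 to 1.46. The bounds of the other 6 lay between 0.615 and 1.63 in females and between 0.676 and 1.47 in males. The direction was not stable: leaving out 1 library turned the sign for 7 of 9 genes, Tet2 and Setdb1 being the exceptions, and Setdb1 turned with litter as a covariate (-0.16).

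**Figure D4:**
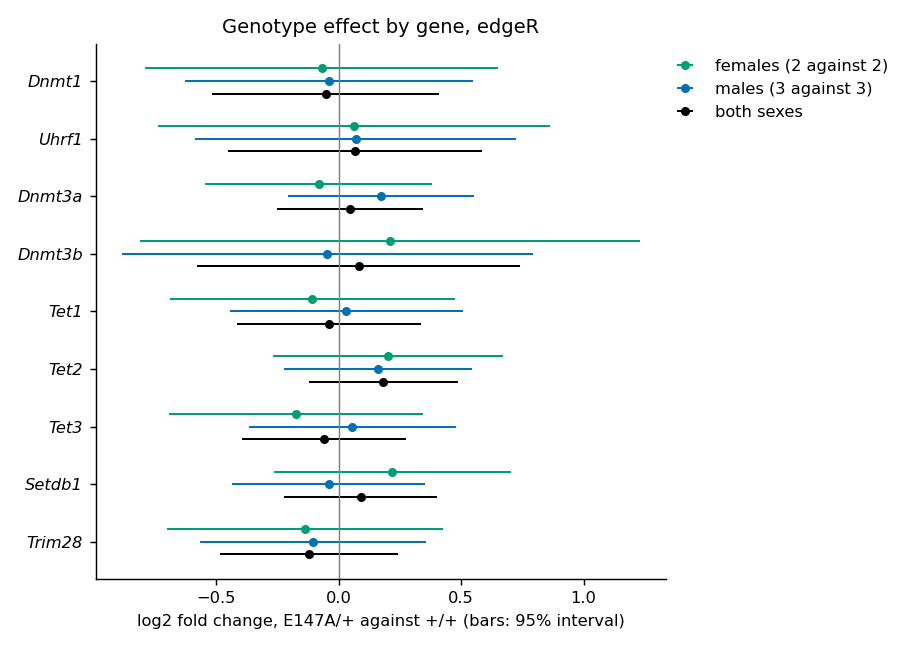
log2 fold change of E147A/+ against +/+ for each of the 9 genes in females (2 against 2), males (3 against 3) and over both sexes, as points with 95% intervals from the edgeR fit on 10 libraries. Every interval crosses 0.

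Females and males were compared over both genotypes, 4 libraries against 6. The females differ from the males also in carrying the XistdeltaA allele. None of the 9 passed in edgeR (0.0292% of all genes did) or in DESeq2 (0.0586%), and 0 had an unadjusted p under 0.05, against 2.81% of all genes. Uhrf1 had the largest difference, female minus male, at a log2 of 0.34 (SE 0.23, adjusted p = 0.975), followed by Dnmt1 at 0.27 (SE 0.21, adjusted p = 0.975). Both low libraries are male, and without them the difference was 0.11 for Uhrf1 and 0.050 for Dnmt1, and those of Dnmt3a, Tet3 and Setdb1 turned sign. With all libraries the other 7 genes lay between -0.092 for Dnmt3a and 0.24 for Dnmt3b. Without the low male libraries these 7 lay between -0.080 for Tet1 and 0.14 for Tet2, with Dnmt3b at 0.018.

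Within groups the SD of log2 CPM exceeded the size of the genotype difference for 8 of the 9 genes. For Tet2 it was 0.175, against a difference of 0.18. The SD of log2 CPM over the 10 libraries was 0.415 for Uhrf1, 0.380 for Dnmt3b and 0.350 for Dnmt1, and between 0.182 for Dnmt3a and 0.241 for Trim28 in the other 6. The median over all genes tested was 0.377. Without the 2 low male libraries the SD was 0.106 for Uhrf1, 0.200 for Dnmt3b, 0.0785 for Dnmt1 and 0.0947 for Setdb1, and 0.155 to 0.209 in the other 5, values that leaving out the lowest libraries of a gene lowers by construction. In the 8 libraries other than male E147A/+ replicate 3 and male +/+ replicate 1, set apart because Dnmt1 and Uhrf1 were lowest in them, Dnmt1 lay between 300.5 and 345 CPM.

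The 2 libraries held the 2 lowest values of 5 of the 9 genes, Dnmt1, Uhrf1, Dnmt3b, Setdb1 and Trim28, where 10.3% of all genes had their 2 lowest values there. The pair was singled out from the values of these same genes, so nothing is read from that count. The 2 libraries held the 2 highest values of 1, Dnmt3a, against 8.71% of all genes. Mcm3 of the replication list and Lig1 of the maintenance list were among the genes most like Dnmt1. The list counts that follow are thus descriptions as well. Of the replication and mitosis list 22 of 26 genes had their 2 lowest values in these libraries, and of the list of maintenance methylation partners 7 of 12, among them Pcna, the sliding clamp that carries DNMT1 at the fork, Lig1, the ligase that UHRF1 binds, and Hells, a remodelling ATPase needed for methylation of repeats. The list of new methylation and its cofactors had 4 of 8 there (Nsd2, Mat2a, Setd2 and Mat2b), that of the TRIM28 and SETDB1 complex 7 of 25, among them the histone methyltransferases Suv39h1 and Suv39h2, and that of oxidation and repair 3 of 17 (Parp1, Mbd4 and Xrcc1), with Gadd45a at its highest. None of the 3 Tet genes had its 2 lowest or 2 highest values there, and of 9 methyl-CpG readers 1 (Mbd3) had its lowest and 2 (Zbtb38 and Zbtb4) their highest.

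Litters 1 and 3 hold 4 libraries each and were compared with sex and genotype in the model. In edgeR 541 of 17110 genes (3.16%) passed, and 0 of the 9 did. In DESeq2 0 of the 9 passed as well, where 1977 genes (12.5% of those given an adjusted p) did. Setdb1 alone had an unadjusted p under 0.05, where 22.7% of all genes did. It was at 154, 148, 150.1 and 152 CPM in litter 1 and 132, 129.7, 103 and 143 CPM in litter 3. All 4 litter 3 libraries lay below all 4 of litter 1, as for 11.4% of all genes, and none of the 9 lay wholly above, as 9.67% did. The log2 difference, litter 3 minus litter 1, was -0.37 (SE 0.13, adjusted p = 0.149). Without male E147A/+ replicate 3 it was -0.14. Dnmt1 at -0.29 (SE 0.18) and Uhrf1 at -0.29 (SE 0.19) turned to 0.15 and 0.14 without male E147A/+ replicate 3 and male +/+ replicate 1. The latter is the only library of litter 4. The other differences were -0.42 (SE 0.37) for Dnmt3b, -0.31 (SE 0.15) for Tet1, -0.22 (SE 0.16) for Tet2, -0.21 (SE 0.18) for Tet3, 0.056 (SE 0.14) for Dnmt3a and 0.019 (SE 0.18) for Trim28. Without the same 2 libraries they were, in this order, 0.20, -0.076, -0.15, 0.18, -0.15 and 0.30. The number of all genes called in this comparison fell to 4 without male E147A/+ replicate 3, 5 and 15 without male E147A/+ replicates 1 and 2, 19 without female E147A/+ replicate 1, 106 without male +/+ replicate 2 and 255 without female +/+ replicate 1, and was 1290 without male +/+ replicate 3.

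Other genes of the pathway were read from 7 lists, none of whose 100 tested genes passed between genotypes in edgeR over both sexes or in DESeq2, and 4 of which had an unadjusted p under 0.05, beside 5.9% of all genes. Of 12 maintenance partners 5 had a positive fold change, with a median of -0.085 beside -0.014 over all genes. The lowest p belonged to Cdca7l, at a log2 of 0.45 (SE 0.27), and Cdca7, at 0.25 (SE 0.21), which encode zinc finger proteins of one family, CDCA7 being the partner of HELLS. Of 8 tested genes of new methylation and its cofactors 4 were positive, with a median of 0.011. Ahcy, the hydrolase that clears the by-product of methyl transfer, was at -0.46 (SE 0.30) and Nsd1, a histone H3 methyltransferase, at -0.18 (SE 0.13). Of 17 genes of oxidation and repair 8 were positive, with a median of -0.0060. Apex1, the abasic site endonuclease, was at -0.40 (SE 0.18) with an unadjusted p of 0.0446, and Tdg, the glycosylase that removes oxidised methylcytosine, was at -0.27 (SE 0.14).

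Of 9 methyl-CpG readers 3 were positive, with a median of -0.10, and Mbd6 was at 0.52 (SE 0.26) and Zbtb33, which encodes the reader Kaiso, at -0.26 (SE 0.14). Of 25 tested genes of the TRIM28 and SETDB1 complex and its partners 13 were positive, with a median of 0.015. Zfp57, the zinc finger protein that holds TRIM28 at imprinted regions, was at 55.8 and 44.0 CPM in the E147A/+ females, 17.1 and 27.4 CPM in the +/+ females, 62.3, 69.6 and 37.3 CPM in the E147A/+ males and 38.3, 61.3 and 17.4 CPM in the +/+ males. Its fold change was 0.85 (SE 0.33), with edgeR adjusted p = 0.803. Both +/+ females are of litter 3, and the litter 3 library was its lowest in each male group. The groups overlapped in males, and the litter difference was -1.12 (SE 0.25), edgeR adjusted p = 0.0558. Trim24, a relative of TRIM28, was at 0.28 (SE 0.12). Of the 26 replication and mitosis genes 4 were positive, with a median of -0.24, and Mki67, the gene of the Ki-67 proliferation antigen, was at -0.53 (SE 0.18) and Ccnb1, cyclin B1, at -0.48 (SE 0.23). Of 15 germline genes that promoter methylation keeps silent in somatic cells 3 passed the filter, and these 3 together summed to between 1.06 and 4.18 CPM in each library. The listed genes that did not pass were not summed. Ddx4, an RNA helicase of germ cells, was at 0.41 (SE 0.52) and Stk31, a testis kinase, at 0.25 (SE 0.83).

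Between litters 3 and 1, 2 of these 100 genes passed, both lower in litter 3, beside 3.16% of all genes, so the count is no larger a share than that of the table. Ogt, the X-linked enzyme that attaches O-GlcNAc and binds TET proteins, was at 639, 585, 604 and 584 CPM in litter 1 and 230.3, 154, 81.2 and 222 CPM in litter 3. The groups did not overlap, and the log2 difference was -2.25 (SE 0.32), edgeR adjusted p = 0.0230. Zfp445, a zinc finger protein that acts through TRIM28 at imprinted regions, was at 227, 241, 219 and 262 CPM in litter 1 and 157, 148, 131 and 165 CPM in litter 3. Its difference was -0.77 (SE 0.11), edgeR adjusted p = 0.0232. The Ogt call was lost without female E147A/+ replicate 1 (adjusted p = 0.0913), male E147A/+ replicate 1 (0.0646), 2 (0.0654) or 3 (0.179). The Ogt difference was -2.23, -2.22 and -2.21 in the first 3 of these fits and -1.50 in the last. Without male +/+ replicate 2 it was -2.93, still called (adjusted p = 0.0497). The Zfp445 call was lost without female E147A/+ replicate 1 (0.105), male E147A/+ replicate 1 (0.0819), 2 (0.0852) or 3 (0.239), or male +/+ replicate 2 (0.0685), with differences of -0.77, -0.76, -0.78, -0.70 and -0.83.

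The allele columns, given for the 4 female libraries, count reads assigned to the 129 or the Cast allele, Cast being the strain of the father in the cross described. Each share below is Cast counts over all allelic counts of that gene, with its 95% Wilson interval, which covers counting error only. Allelic counts per gene and library lay between 47 and 6906. In the cross described, every embryo would carry a Cast copy of each autosomal gene. The 36 pairs of a gene and a library instead fell into 18 where the median of the neighbouring genes within 5 Mb was between 46.8% and 50.7% and 18 where it was between 0.0979% and 10.5%. In the latter the 9 genes had few Cast counts too. Shares are therefore read only against the neighbours, each set holding 25 to 124 genes with at least 20 allelic counts.

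The Cast shares of Dnmt1 and Uhrf1 fell on opposite sides by genotype, each together with its neighbours. Of 11078 autosomal genes with at least 20 allelic counts in all 4 females, 3% were near even (35% to 65%) in both E147A/+ females and under 15% in both +/+ females, as Dnmt1 was, and 4.64% were the reverse, as Uhrf1 was, so the split is not particular to these genes. The Cast share of Dnmt1 was 52.1% (50.6% to 53.5%) and 51.9% (50.6% to 53.3%) in the E147A/+ females, beside neighbours at 47.4% and 47.3%. It was 2.57% (2.10% to 3.14%) and 2.43% (2.02% to 2.92%) in the +/+ females, where the neighbours were at 0.466% and 0.350%. For Uhrf1 it was 0.245% (0.137% to 0.439%) and 0.105% (0.0449% to 0.246%) in the E147A/+ females, and 44.6% (42.8% to 46.5%) and 44.4% (42.8% to 45.9%) in the +/+ females, where the neighbours were at 48.6% and 50.3%. Smchd1 genotype and the Cast share of Dnmt1 and of Uhrf1 can thus not be told apart in these females. Uhrf1 lies on chromosome 17, as Smchd1 does, and the part of this in its split was not tested. An exact permutation test of 2 against 2 libraries cannot give a two-sided p under 0.333, the value for Dnmt1, Uhrf1 and Dnmt3a. The total level of Dnmt1 was 305 and 334 CPM with a Cast copy and 330.0 and 339 CPM in the libraries nearly without Cast counts, and these totals overlapped.

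Where the neighbours lay near 50%, 10 of 18 pairs had a Wilson interval that left out 50%, as did 46.6% of 1077 pairs of a neighbouring gene and a library. With at least 500 allelic counts it was 10 of 16, and 47.7% of 457 neighbouring pairs. The leanings below are thus given beside the neighbours and not read as particular to these genes. Dnmt3a leaned to 129 in 3 libraries, with Cast shares of 44.0% (42.0% to 46.0%), 44.4% (41.9% to 46.8%) and 44.0% (42.0% to 46.1%) beside neighbours at 48.6%, 47.2% and 50.4%. Of the neighbours 12%, 38.5% and 7.69% had a lower share still. Dnmt3a had 0.0890% (0.0244% to 0.324%) in female E147A/+ replicate 2. Uhrf1 leaned the same way in both +/+ females. Tet2 leaned to Cast, at 57.1% (53.4% to 60.8%) in female E147A/+ replicate 2 and 62.3% (58.1% to 66.3%) in female +/+ replicate 2, beside neighbours at 49.0% and 49.2%, of which 70.5% and 86.8% had a lower share. Tet3 was at 51.2% (49.1% to 53.2%) in female E147A/+ replicate 1 and 54.9% (52.6% to 57.2%) in female +/+ replicate 2, beside 47.8% and 46.8%. How reads were assigned to alleles is not given in the sources used here, and its part in these leanings was not tested.

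Setdb1 and Trim28 were close to even where a Cast copy was seen nearby, Setdb1 at 50.8% (48.2% to 53.3%) and 49.7% (46.8% to 52.5%) and Trim28 at 50.1% (48.9% to 51.2%) and 48.8% (47.4% to 50.2%) in replicate 2 of each genotype. In the replicate 1 libraries Setdb1 was at 6.02% (4.92% to 7.34%) and 5.81% (4.47% to 7.52%), above neighbours at 1.02% and 0.489%. Trim28 was at 8.38% (7.66% to 9.16%) and 8.75% (8.05% to 9.51%) there, below neighbours at 10.3% and 10.5%. Tet1 was near even in female E147A/+ replicate 2 alone, at 49.5% (45.7% to 53.2%), and at most 0.418% elsewhere. Dnmt3b had too few allelic counts, 47 to 98, to place it closely: 51.0% (41.3% to 60.7%) and 58.5% (46.3% to 69.6%) in the replicate 1 libraries, and 2.47% (0.680% to 8.56%) and 14.9% (7.41% to 27.7%) in the replicate 2 libraries.

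**Figure D5:**
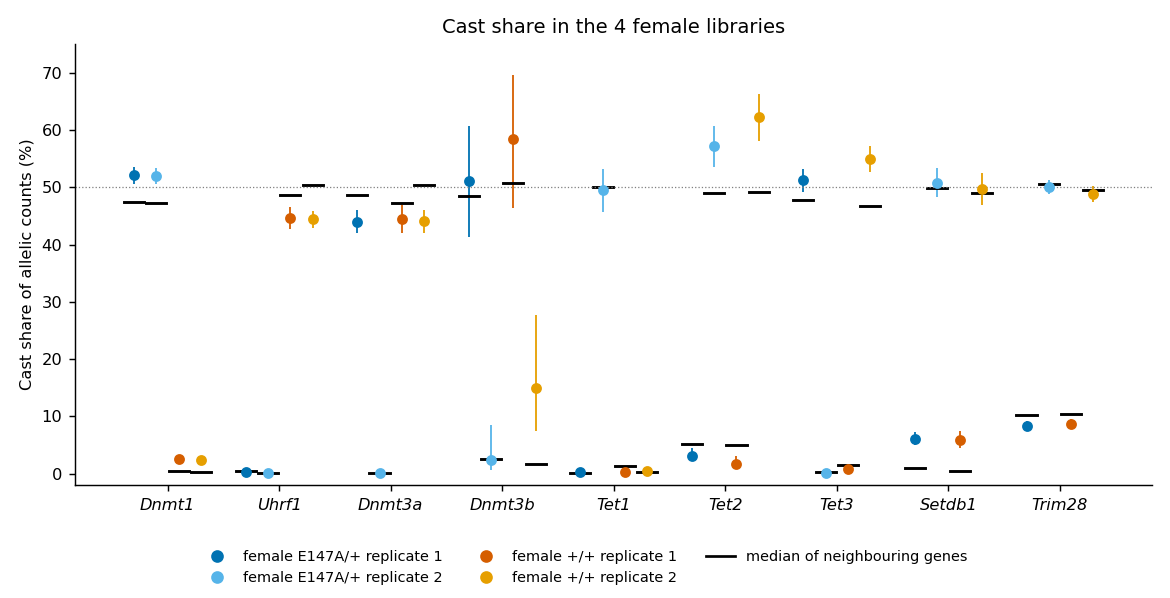
Cast share of allelic counts (percent) for each of the 9 genes in the 4 female libraries, points with 95% Wilson intervals and black bars at the median of the neighbouring genes in the same library, with a dotted line at 50%. Shares fall near 50% or under 15% together with the neighbours, and Dnmt1 and Uhrf1 lie on opposite sides in the genotypes, as 3% and 4.64% of autosomal genes did in the same directions.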

How the data were processed

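Per the labels' protocols, stranded poly(A) libraries were sequenced with 80 bp paired reads. The submitters' processing notes name Trim Galore 0.4.4, HISAT2 2.0.5, featureCounts, edgeR 3.24.0 in R 3.5.1 and the build GRCm38. What the authors deposited is a table of unnormalised read counts by gene, with 1 total column for each of 10 libraries and 129 and Cast columns for the 4 females. The strand setting and the allele method are not given in the sources used here. Replicates are cultures of separate embryos.

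Genes were filtered with filterByExpr (17110 of 52632 kept), normalised by TMM (CPM) and tested with edgeR 4.0.16 in R 4.3.3 by the quasi-likelihood F test, with 1 mean per group, or with litter, sex and genotype for the litter comparison. p-values were adjusted by Benjamini-Hochberg over all tested genes, with a threshold of 0.05. SE is the absolute log2 fold change over the square root of F. Correlations use log2 CPM with a prior count of 2. DESeq2 1.42.0 was an alternative. The procedure was tested on simulated counts. The 9 genes and the lists of other genes were chosen with earlier results of these data known. All 9 genes were named, and of each list the genes past the threshold or else the 2 with the lowest p. Promoters are from RefSeq, GRCm38.p6, and exon lengths from GENCODE. No sample was left out.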

Additional observations from a re-analysis of the deposited data

Results flagged for a closer look

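Among the 4 libraries of litter 3, Dnmt1 stood far from the others in male E147A/+ replicate 3, at 192 CPM, with the nearest library at 330.0 CPM and the far end at 345 CPM. Male E147A/+ replicate 3 is the only E147A/+ library of that litter. The gap was 0.905 of the range, above the 95% critical value of Dixon's test for 4 values. In the same litter Tet2 stood high in female +/+ replicate 1, at 41.5 CPM, with the nearest at 31.0 CPM and the lowest at 30.4 CPM, a gap of 0.942 of the range. The test was run 18 times, for 9 genes in 2 litters, and chance marks about 1 group in 20.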

How the results depend on the processing

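None of the 9 genes passed in any of 103 alternative counts over the 6 comparisons, which covered RLE normalisation, DESeq2, no filter, litter as a covariate, a replicate block, only the groups compared and leaving out libraries. The lowest adjusted p of any of them was 0.0600, for Setdb1 between litters without male +/+ replicate 3 (0.0970 in DESeq2). Of 774 alternative fold changes 697 kept the sign and 77 turned it. With litter as a covariate the turned values were, over both sexes, Uhrf1 -0.28, Dnmt3b -0.27, Setdb1 -0.16; in females Uhrf1 -0.27, Dnmt3b -0.16, Setdb1 -0.10; in males Uhrf1 -0.30; and female minus male Dnmt3a 0.031, Tet1 0.16. Without both male E147A/+ replicate 3 and male +/+ replicate 1, left out after the data were seen, they were, over both sexes, Tet1 0.11, Tet3 0.049; in males Uhrf1 -0.022, Dnmt3b 0.0090, Setdb1 0.023 (with Tet1 0.33 and Tet3 0.27, signs kept); female minus male Dnmt3a 0.012, Tet3 -0.022, Setdb1 -0.071; and between litters Dnmt1 0.15, Uhrf1 0.14, Dnmt3a -0.15, Dnmt3b 0.20, Tet3 0.18. The causes of these turns were not tested. Leaving out 1 library at a time gave ranges over both sexes of -0.17 to 0.10 for Tet1, -0.13 to 0.034 for Tet3, -0.23 to 0.018 for Trim28, -0.047 to 0.24 for Dnmt3b, -0.075 to 0.18 for Uhrf1, -0.17 to 0.044 for Dnmt1, -0.021 to 0.13 for Dnmt3a. In females the ranges were -0.36 to 0.12 for Trim28, -0.18 to 0.020 for Dnmt3a, -0.39 to 0.15 for Tet1, -0.035 to 0.16 for Uhrf1, -0.046 to 0.51 for Dnmt3b. In males they were -0.21 to 0.30 for Uhrf1, -0.10 to 0.19 for Tet1, -0.070 to 0.23 for Tet3, -0.28 to 0.16 for Dnmt1, -0.26 to 0.20 for Dnmt3b, -0.14 to 0.12 for Setdb1, -0.24 to 0.061 for Trim28. For female minus male they were -0.043 to 0.12 for Tet3, -0.22 to 0.054 for Tet1, -0.019 to 0.11 for Setdb1, and for litter 3 minus litter 1 -0.14 to 0.22 for Dnmt3a, -0.23 to 0.31 for Trim28, -0.68 to 0.16 for Dnmt1, -0.67 to 0.14 for Uhrf1, -0.98 to 0.20 for Dnmt3b, -0.56 to 0.18 for Tet3.

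Same-numbered libraries come from different embryos, of the same litter only for male numbers 2 and 3, and their deviations correlated at -0.304 in females and at -0.238, 0.416 and 0.0341 in the male pairs. In males 2 of 6 libraries correlated best with their own number. Since not every pair correlated above 0.1, the numbers were not taken to pair the libraries. With the replicate block 0 of the 9 genes passed in any comparison, and the litter difference of Tet3 was 0.094. With the female numbers crossed, added after the data were seen, 0 passed and that of Trim28 was -0.22. Ogt and Zfp445 between litters were no longer called under the block (log2 -2.17 and -0.82) or with the numbers crossed (-2.75 and -0.91), where 1 and 2 genes of the table were called in place of 541.

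Counts over all genes moved more. Between genotypes over both sexes 14 genes were called in edgeR, 113 in DESeq2, 33 with no filter, 3 with litter as a covariate, 5 with the block (6 crossed), 7 without the 2 male libraries and 2 to 12 without 1 library. In females the 2 calls became 46 in DESeq2, 8 with no filter, 1 with only the groups compared and 0 with litter or the block. In males the 4 became 48, 14, 1, and 2 with litter or the block. The interaction, which always uses every group, had 0 in edgeR, 2 in DESeq2 and 1 with litter. Without the 2 male libraries females had 1, males 2 and the interaction 1. For female minus male the 5 became 10 in DESeq2 and 9 with litter, and between litters the 541 became 1977 in DESeq2 and 2110 with no filter. With neighbour windows of 2 and 10 Mb and a minimum of 50 counts the number of pairs with neighbours near 50% was again 18; a Cast share itself does not use the neighbours.

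With 2 or 3 cultures a group the fold intervals of Dnmt3b reach 0.570 to 2.35 in females and 0.541 to 1.73 in males. Counting error gives an expected SD of log2 CPM of 0.14 for Dnmt3b and of 0.0123 to 0.0432 for the other 8 genes. Fit intervals assume equal spread in all groups.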
